A study of Mus musculus with 22 samples.

Results

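Insulin signalling in the liver is held in check by proteins that bind the insulin receptor, remove its phosphates or act on the kinases below it. Their genes are described here as a set of 7, Grb10, Grb14, Socs3, Ptpn1, Ptprf, Trib1 and Trib3, which were chosen by symbol from the known biology of the pathway. Earlier results of these data were known when the genes were chosen. All 7 were found among the 23227 genes of the mRNA count table and among the 23167 promoters of the table of histone H3 acetylated at lysine 27 (H3K27ac), a mark of active promoters and enhancers. All 7 also had enough reads to be tested, alongside 12909 genes in all for mRNA and 20891 promoters for H3K27ac. The livers came from wild-type C57BL/6J mice, and both groups were 24 weeks old and had fasted overnight before the liver was freeze-clamped and pulverized. One group had eaten a high-fat diet (HFD; S3282, Bioserve) for 16 weeks, having started at 8 weeks of age, and the other had stayed on chow (Prolab Isopro RMH 3000, Purina). There were 3 libraries per diet for mRNA and 3 per diet for H3K27ac, out of 22 samples in the series. The study asked how a high-fat diet that brings on insulin resistance changes the liver.

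When insulin binds its receptor, the receptor phosphorylates itself and the IRS proteins on tyrosine, and the signal passes through phosphatidylinositol 3-kinase to the kinase AKT. GRB10 and GRB14 are adaptors that dock on the active receptor and block its kinase, PTP1B (from Ptpn1) and LAR (from Ptprf) are tyrosine phosphatases, and SOCS3 is made in response to cytokines through STAT3 and binds the receptor or the IRS proteins. TRIB1 and TRIB3 belong to the Tribbles pseudokinases, which bind other proteins and do not act as ordinary kinases: TRIB3 was described as a binder of AKT in mouse liver, and TRIB1 is best known for bringing the ubiquitin ligase COP1 to C/EBP alpha. Most of these brakes act through protein activity, which RNA counts do not measure.

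Total mRNA counts were 20977959 to 23948777 in the HFD libraries and 19016275 to 45741794 in the chow libraries. Promoter counts were 1967613 to 3788577 in the HFD libraries and 2376133 to 4964403 in the chow libraries. The livers carried their defining RNA: 7 hepatocyte markers summed to 81674 to 103475 CPM (counts per 1e+06 counts of the scaled library) in HFD livers and 86336 to 93738 CPM in chow livers. By the test described below, 1 of the 7 was called higher and 2 lower. Over all tested genes 18% were called higher and 17.6% lower. Markers of exocrine pancreas were also present, at 2.05, 166 and 2.06 CPM in the 3 HFD libraries and 1687, 717 and 271 CPM in the 3 chow libraries, and 8 of the 10 were called lower. Macrophage markers summed to 228, 437 and 309 CPM in HFD livers and 188, 209 and 357 CPM in chow livers, and 1 of 8, Cd68, was called higher. Markers of stellate cells and fibroblasts summed to 202, 327 and 447 CPM in HFD livers and 323, 322 and 317 CPM in chow livers. Of these 8 markers, 2 were called higher and 1 lower. The part of these other cells in the results below was not tested, and in whole liver fewer cells of a type and less RNA per cell cannot be told apart. The labels do not say that replicates came from separate mice and name no sequencing batch, so p-values measure the spread between these libraries, and diet cannot be told apart from any batch that ran along with it.

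Of the 7 genes, Trib1 and Ptprf rose in mRNA on the high-fat diet and Grb14 fell, while Grb10, Socs3, Ptpn1 and Trib3 did not pass the test. A gene was called when its adjusted p was under 0.05 in edgeR's quasi-likelihood test, with Benjamini-Hochberg adjustment over all tested genes. With 3 of 7 called, the set stood close to the table as a whole, in which 35.6% of genes were called, 18% higher and 17.6% lower. Scaled by total counts instead, 63% of the mRNA calls were higher, against 50.5%, and the median of all genes moved to 0.10, while the calls of the 7 genes were the same. The 3 called genes were also the 3 whose HFD and chow libraries did not overlap, which held for 50.6% of all genes (25.1% with HFD above and 25.5% with HFD below). The same 3 genes were the members with an unadjusted p under 0.05 by edgeR, against 46.6% of all genes. By DESeq2 there were 4 such members, against 42.8% of all genes, and Socs3 had a DESeq2 adjusted p of 0.0539. The median log2 fold change of the 7 was 0.17, beside 0.02 over all tested genes. The counts therefore describe the single genes and do not set the group of 7 apart.

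**Figure D1:**
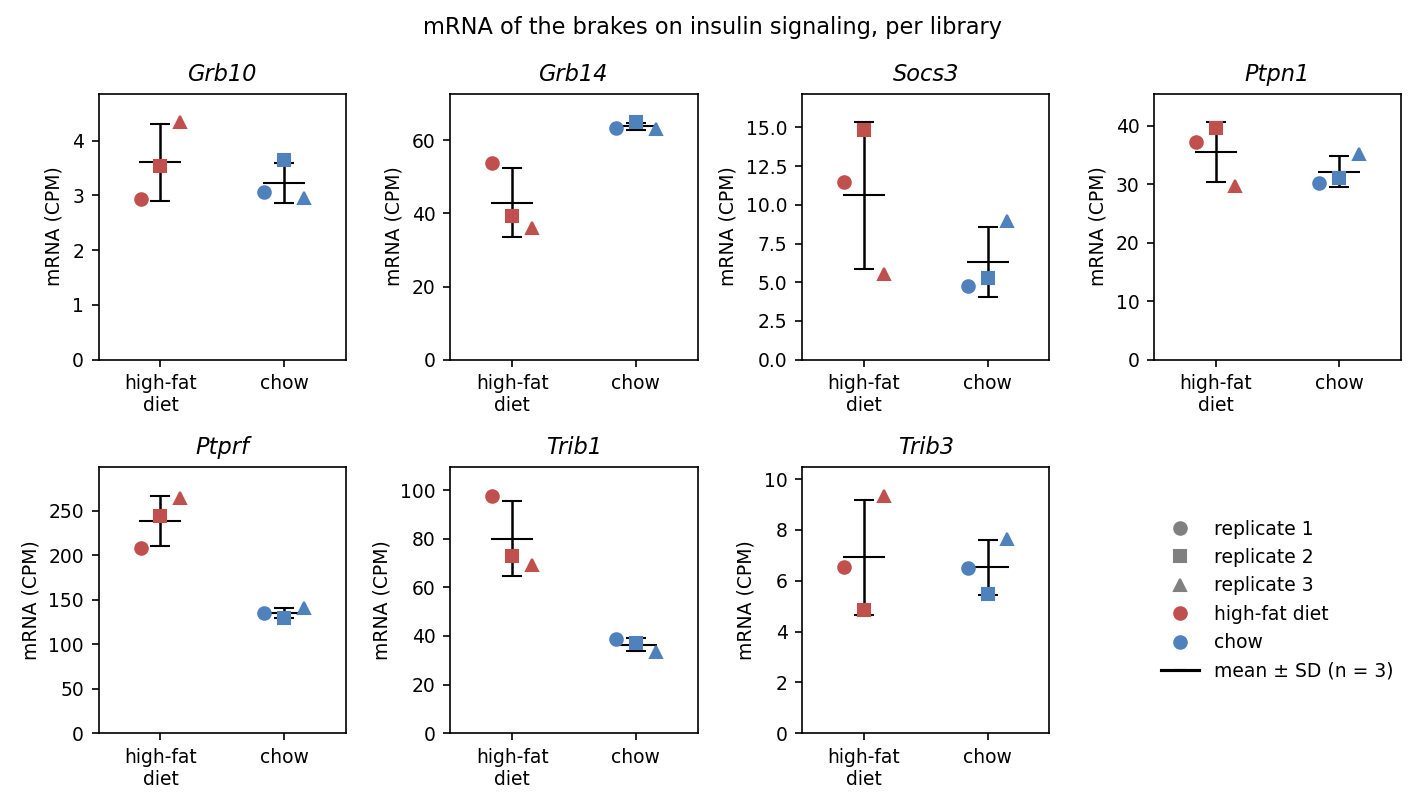
Messenger RNA of the 7 genes in each liver library, in CPM (vertical axes, which differ between panels), with HFD libraries left of chow libraries, 1 point per library and bars for the mean and SD of each diet (n = 3). The diets separate for Grb14, Ptprf and Trib1 and overlap for the other 4 genes.

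Grb14 encodes the receptor-blocking adaptor that is abundant in liver. Its mRNA stood at 53.7, 39.2 and 35.9 CPM in the 3 HFD livers, against 63.3, 65.0 and 63.2 CPM in the 3 chow livers. Every HFD library lay below every chow library, and the HFD libraries were spread much more widely, at 43.0 ± 9.47 CPM against 63.8 ± 1.02 CPM in chow livers (SD, n = 3 each). Grb14 fell 1.49-fold (log2 fold change −0.57, SE 0.141, 95% interval −0.89 to −0.25, edgeR adjusted p = 0.0146). The call ended without HFD replicate 2 (adjusted p = 0.0598) and without chow replicate 2 (adjusted p = 0.0561), while its direction held in both.

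Its close relative Grb10, known as an imprinted growth inhibitor that is strongest before birth, was scarce, with 55 to 136 reads per library. Grb10 gave 2.94, 3.53 and 4.34 CPM in HFD livers and 3.07, 3.65 and 2.96 CPM in chow livers, and the diets overlapped. Its log2 fold change was 0.17 (95% interval −0.27 to 0.60, edgeR adjusted p = 0.532), so a change of the size seen in Grb14 lay outside the interval on the lower side. The ratio of Grb14 to Grb10 counts, which compares each adaptor with itself across libraries and not their absolute levels, was 18.3, 11.1 and 8.28 in HFD livers and 20.6, 17.8 and 21.4 in chow livers. These ratios overlapped, since HFD replicate 1 stood above chow replicate 2, and the log2 difference of −0.74 gave a two-sided exact permutation p of 0.2. With 0.5 CPM added to both genes the difference was −0.72 and the overlap ended, by a small margin (15.77 in HFD replicate 1 against 15.80 in chow replicate 2), which gave an exact permutation p of 0.1.

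The start of the Grb14 gene is shown because Grb14 was the adaptor whose mRNA fell. In the RefSeq annotation of GRCm38.p6 the window of 250 bases before to 50 after its start lies on the minus strand at chr2:65022717-65023016. The count tables were made on the older build mm9 and carry no coordinates. Capitals mark GC boxes, GGGCGG read on either strand, which 35.7% of all 32851 such windows hold at least once.
Grb14: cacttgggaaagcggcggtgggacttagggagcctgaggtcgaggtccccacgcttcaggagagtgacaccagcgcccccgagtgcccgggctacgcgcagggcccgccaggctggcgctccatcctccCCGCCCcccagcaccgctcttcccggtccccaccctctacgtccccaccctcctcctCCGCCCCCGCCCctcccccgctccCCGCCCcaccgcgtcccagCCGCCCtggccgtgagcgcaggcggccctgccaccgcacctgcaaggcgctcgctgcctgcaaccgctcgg
The Grb14 window held 5 GC boxes, all read on the opposite strand as CCGCCC, and neither of the other motifs searched.

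Ptprf encodes LAR, a receptor-type phosphatase that can remove phosphate from the insulin receptor. Its mRNA was at 208, 244 and 264 CPM in HFD livers, against 135, 129 and 140.3 CPM in chow livers. The lowest HFD library stood well above the highest chow library, and the means were 239 ± 28.5 CPM on the high-fat diet and 135 ± 5.66 CPM on chow (SD, n = 3 each). Ptprf rose 1.77-fold (log2 fold change 0.82, SE 0.0997, 95% interval 0.60 to 1.05, edgeR adjusted p = 0.000658). It passed whichever library was left out, with log2 fold changes of 0.75 to 0.91.

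Ptpn1 encodes PTP1B, the phosphatase best known for acting on the insulin receptor in liver. It had 37.3, 39.6 and 29.8 CPM in HFD livers and 30.2, 31.0 and 35.3 CPM in chow livers. HFD replicate 3 was the lowest of the 6 libraries, so the diets overlapped. The log2 fold change of 0.15 had a 95% interval of −0.13 to 0.42 (edgeR adjusted p = 0.375), which leaves out a rise as large as that of Ptprf.

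The Ptprf window is printed as that of the phosphatase gene whose mRNA rose, again 250 bases before to 50 after the start, on the minus strand at chr4:118291348-118291647 of GRCm38.p6, from RefSeq. Capitals mark GC boxes on either strand.
Ptprf: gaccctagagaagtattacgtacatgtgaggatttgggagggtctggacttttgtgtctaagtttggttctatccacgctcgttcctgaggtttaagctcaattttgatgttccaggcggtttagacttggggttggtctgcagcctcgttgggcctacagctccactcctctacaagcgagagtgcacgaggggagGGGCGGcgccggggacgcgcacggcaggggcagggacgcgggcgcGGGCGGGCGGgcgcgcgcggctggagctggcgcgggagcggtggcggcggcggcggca
Ptprf had 3 GC boxes, and the last pair overlaps by 2 bases in the run GGGCGGGCGG. The Ptprf window held none of the other motifs searched.

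Socs3 had the widest 95% interval of the log2 fold change among the 7. Its product is a cytokine-induced inhibitor that also shuts off STAT3 signalling. Socs3 mRNA was at 11.5, 14.9 and 5.51 CPM in HFD livers and 4.79, 5.26 and 8.93 CPM in chow livers. HFD replicates 1 and 2 were above all chow libraries, but HFD replicate 3 lay below chow replicate 3. The means were 10.6 ± 4.74 CPM on the high-fat diet and 6.32 ± 2.27 CPM on chow (SD, n = 3 each), and the log2 fold change of 0.77 had a 95% interval of −0.06 to 1.60 (edgeR adjusted p = 0.131). Without HFD replicate 3, the lowest HFD library, the log2 fold change was 1.09 and passed the test (edgeR adjusted p = 0.0123). Without HFD replicate 2, the highest, it was 0.44 (edgeR adjusted p = 0.42). Of the 6 libraries left out in turn, HFD replicate 3 was the only 1 whose removal gave a call.

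Stat3, which encodes the transcription factor that drives Socs3, ran with it. It was at 171.9, 213 and 117 CPM in HFD livers and 99.8, 93.4 and 135 CPM in chow livers. The same libraries were high and low as for Socs3, and Stat3 narrowly missed the threshold, with a log2 fold change of 0.61 (edgeR adjusted p = 0.0564). Of the 9 genes listed for the input to STAT3, 2 were called higher and 1 lower, and 6 were not called, which is close to the 35.6% called over all genes. The median log2 fold change of the list was 0.32. Il6ra, the receptor subunit for interleukin 6, rose 1.81-fold (adjusted p = 0.000253), and the kinase gene Tyk2 rose 1.37-fold (adjusted p = 0.00722). Lepr, the leptin receptor, fell 8.10-fold (adjusted p = 0.00452), with 3.59, 3.84 and 6.00 CPM in HFD livers against 10.5, 53.2 and 46.4 CPM in chow livers. Chow replicate 1 was thus far below the other chow libraries for Lepr, although still above every HFD library. The number called higher was 4 without HFD replicate 1 or without HFD replicate 3. Macrophage markers moved in part with Socs3: their sum was highest in HFD replicate 2 and, among chow libraries, in chow replicate 3, as for Socs3, but HFD replicate 1, high in Socs3, had the lowest sum of the HFD livers. Their part in the Socs3 values was not tested.

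The Socs3 window is shown for a STAT site close to its start, and lies on the minus strand at chr11:117969317-117969616 of GRCm38.p6, from RefSeq. Capitals mark the STAT site, TTCNNNGAA with any base at N, which reads the same on both strands in its fixed letters, and GC boxes on either strand.
Socs3: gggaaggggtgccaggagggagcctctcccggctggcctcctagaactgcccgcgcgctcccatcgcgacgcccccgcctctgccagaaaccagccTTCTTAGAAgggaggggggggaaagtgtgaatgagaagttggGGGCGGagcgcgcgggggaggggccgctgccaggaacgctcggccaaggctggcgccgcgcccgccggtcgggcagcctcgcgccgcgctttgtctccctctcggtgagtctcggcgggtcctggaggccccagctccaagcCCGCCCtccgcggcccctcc
The STAT site reads TTCTTAGAA and takes bases 97 to 105 of the window, counted from 1 at its 5′ end. A STAT site was present in 8.3% of all windows, and the match describes letters, not binding.

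Trib1 rose more than any other of the 7. In HFD livers Trib1 was at 97.8, 73.0 and 69.3 CPM, against 38.6, 37.2 and 33.3 CPM in chow livers. The lowest HFD library exceeded the highest chow library by a wide margin, and the means were 80.0 ± 15.5 CPM on the high-fat diet and 36.4 ± 2.74 CPM on chow (SD, n = 3 each). Trib1 rose 2.20-fold (log2 fold change 1.13, SE 0.137, 95% interval 0.82 to 1.45, edgeR adjusted p = 0.000648). It passed whichever library was left out, with log2 fold changes of 0.96 to 1.23.

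Among 5 measured genes whose products work with TRIB1, 3 rose, none fell and 2 did not pass, where 18% of all genes rose and 17.6% fell. The median log2 fold change of the 5 was 0.68. By DESeq2 the count was again 3 higher and 0 lower, where 2194 of all 12908 genes were called higher. All 3 genes with an unadjusted p under 0.05 by edgeR were the called ones, beside 46.6% of all genes. Cebpa, whose protein TRIB1 delivers for destruction, rose 1.60-fold (edgeR adjusted p = 0.0034). Its relative Cebpb rose 1.71-fold (adjusted p = 0.0443), although its diets overlapped. Mlxipl, which encodes the carbohydrate-sensing factor ChREBP, rose 1.60-fold (adjusted p = 0.0111). Rfwd2, the gene for COP1, stood at a log2 fold change of −0.17 (adjusted p = 0.118). Without chow replicate 2 only 1 of the 5 was called.

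Trib3, the AKT-binding relative, did not pass the test. It gave 6.53, 4.86 and 9.35 CPM in HFD livers and 6.50, 5.47 and 7.64 CPM in chow livers. HFD replicates held both the highest and the lowest value, and the log2 fold change was 0.08 (95% interval −0.47 to 0.62, edgeR adjusted p = 0.822). Its sign turned to −0.20 without HFD replicate 3. The ratio of Trib3 to Trib1 counts was 0.0668, 0.0666 and 0.135 in HFD livers and 0.168, 0.147 and 0.229 in chow livers, so every HFD ratio lay below every chow ratio. The log2 difference of −1.08 had a two-sided exact permutation p of 0.1, the smallest that 3 against 3 libraries can give. Adjusted over the 2 ratios tested, both the Trib and the Grb ratio stood at 0.2, and at 0.1 with 0.5 CPM added.

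Trib3 is a target of ATF4 and CHOP, the transcription factors of the stress response to unfolded protein and amino acid shortage. Of 13 tested genes listed with Trib3 as such targets or factors, 4 were called higher and 3 lower, and 6 were not called, beside 18% higher and 17.6% lower over all genes. The median log2 fold change of the list was 0.04. The movers went far in both directions. Asns, which makes asparagine, fell 19.1-fold (edgeR adjusted p = 0.000305), the transcription factor gene Atf5 fell 2.42-fold (adjusted p = 0.000284), and Ddit4, an inhibitor of mTORC1, fell 2.26-fold (adjusted p = 0.0043). Chac1, which degrades glutathione, rose 6.26-fold (adjusted p = 0.00571), the transcription factor gene Atf3 rose 3.79-fold (adjusted p = 0.0107), and Aldh18a1, an enzyme of proline synthesis, rose 2.46-fold (adjusted p = 0.0106). Chac1, Atf3 and Aldh18a1 averaged 0.94, 0.81 and 0.66 CPM in chow livers, and Asns averaged 0.71 CPM in HFD livers. The sizes of these 4 fold changes therefore rest on low counts in 1 diet. Atf4 itself stood at a log2 fold change of −0.13 (adjusted p = 0.513). The list thus did not shift one way, and Trib3 sat near its middle.

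The Trib3 window is shown for a composite site of ATF4 and C/EBP factors, the family to which CHOP belongs. It lies on the minus strand at chr2:152344011-152344310 of GRCm38.p6, from RefSeq. Capitals mark the composite site, TGATGNAA on either strand, and GC boxes on either strand.
Trib3: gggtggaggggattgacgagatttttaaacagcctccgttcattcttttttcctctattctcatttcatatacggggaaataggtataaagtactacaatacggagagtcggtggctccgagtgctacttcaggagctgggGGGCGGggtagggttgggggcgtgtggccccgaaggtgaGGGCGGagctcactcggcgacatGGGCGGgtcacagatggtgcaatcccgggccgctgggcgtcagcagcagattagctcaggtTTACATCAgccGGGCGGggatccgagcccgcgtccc
The composite site stands as TTACATCA on the opposite strand, at bases 265 to 272 of the window, and it was present in 3.97% of all windows. RefSeq windows were matched for 6 of the 7 genes, all but Trib1.

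Acetylation of the 7 promoters was compared next, since a change in mRNA may or may not come with a change in the mark at the gene's start. None of the 7 promoters passed the test, and in all 7 the HFD and chow libraries overlapped. Few promoters passed anywhere: 0.235% of those tested were called, 0.187% higher and 0.0479% lower, and 19.5% did not overlap between diets (9.77% with HFD above and 9.73% with HFD below). At an unadjusted p under 0.05 there was 1 of 7 by edgeR, where 14% of all promoters passed, and 0 of 7 by DESeq2, where 7.55% passed. A count of 0 among 7 is close to that background. The background itself was unsteady: 49 promoters were called in all, 470 with a replicate block, 736 without HFD replicate 2 and 0 without chow replicate 2. The median log2 fold change of the 7 promoters was −0.16, beside −0.003 over all tested promoters. Without HFD replicate 1 the 7 ran from −0.13 to 0.11, beside a median of −0.002 over all promoters. The Ptprf promoter, which held the median of the 7, was then at −0.014.

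**Figure D2:**
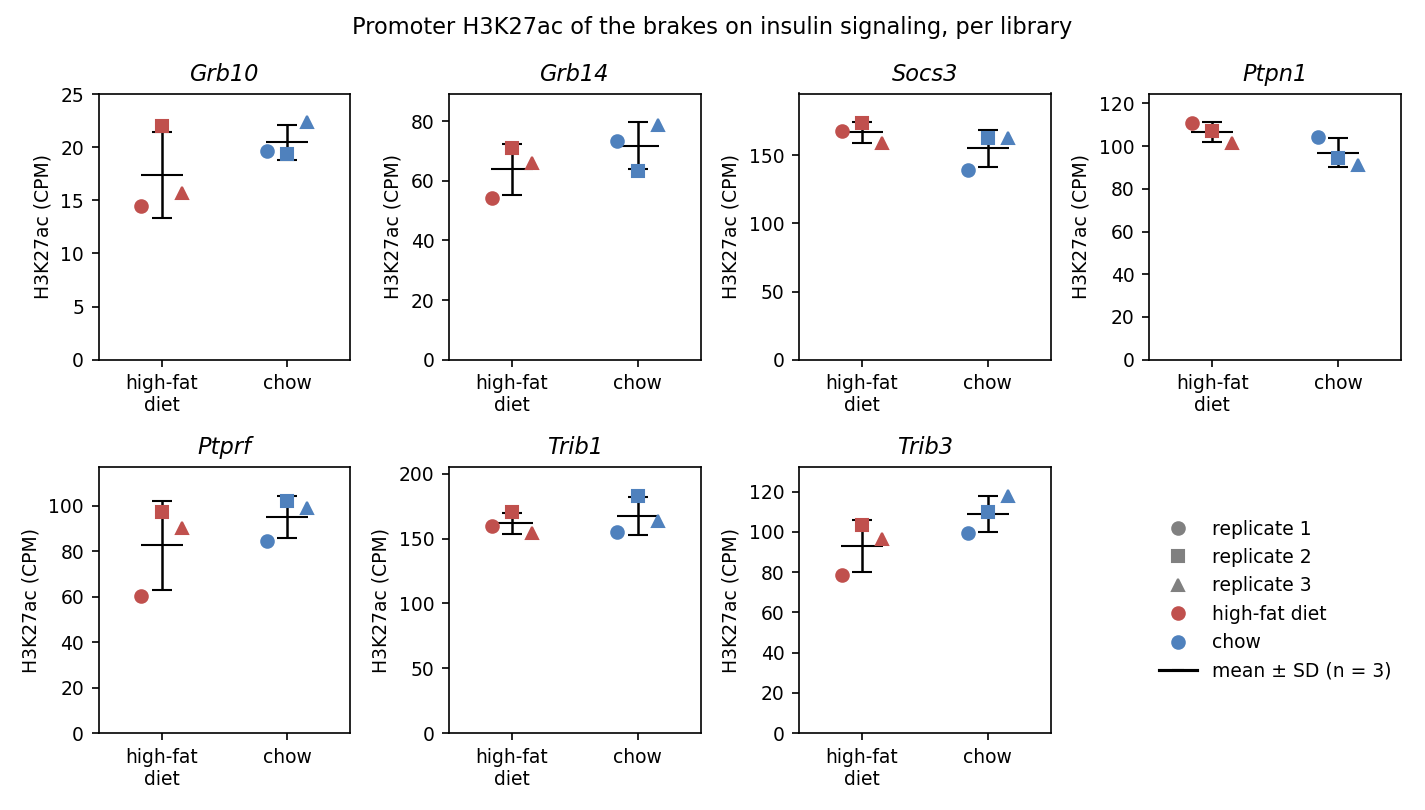
H3K27ac reads at the promoters of the 7 genes in each library, in CPM (vertical axes, which differ between panels), with HFD libraries left of chow libraries, 1 point per library and bars for the mean and SD of each diet (n = 3). The diets overlap in every panel.

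At the promoter of Trib1, the gene whose mRNA rose most, H3K27ac stood at 159.8, 171 and 155 CPM in HFD livers and 155, 183 and 163 CPM in chow livers. These values were interleaved, and the log2 fold change of −0.04 had a 95% interval of −0.24 to 0.16 (edgeR adjusted p = 0.892). The Ptprf promoter had 60.2, 97.2 and 90.2 CPM in HFD livers and 84.6, 102 and 99.2 CPM in chow livers. HFD replicate 1, the library with the fewest reads, was lowest there, and the log2 fold change was −0.16 (95% interval −0.40 to 0.09, adjusted p = 0.58). This was opposite in sign to that of its mRNA, but rested on HFD replicate 1. Without that library the promoter stood at −0.014 (edgeR adjusted p = 0.978). The Grb14 promoter had 54.3, 71.2 and 66.1 CPM in HFD livers and 73.4, 63.2 and 78.8 CPM in chow livers, with a log2 fold change of −0.16 (95% interval −0.38 to 0.05, adjusted p = 0.491). HFD replicate 1 was again the lowest.

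The promoters of the genes with no call in mRNA gave similar pictures. Socs3, the promoter with the STAT site shown above, had 168, 174 and 159 CPM in HFD livers and 139.5, 163 and 163 CPM in chow livers. Its chow replicate 1 stood low, and the log2 fold change was 0.11 (95% interval −0.09 to 0.31, edgeR adjusted p = 0.648). Ptpn1 had 111, 107 and 102 CPM in HFD livers and 104, 94.6 and 91.4 CPM in chow livers, with a log2 fold change of 0.13 (95% interval −0.06 to 0.32, adjusted p = 0.539). Grb10 had the fewest reads of the 7, with 14.4, 22.0 and 15.7 CPM in HFD livers and 19.6, 19.3 and 22.4 CPM in chow livers, and a log2 fold change of −0.21 (95% interval −0.62 to 0.19, adjusted p = 0.654). Trib3 came nearest to a call, with 78.7, 103 and 96.6 CPM in HFD livers and 99.6, 109.6 and 118 CPM in chow livers. Only HFD replicate 2 reached into the chow range there, and the log2 fold change of −0.21 had a 95% interval of −0.42 to −0.00025 (edgeR adjusted p = 0.357). Trib3 was the 1 promoter of the 7 with an unadjusted p under 0.05 and the 1 whose interval left out 0, by a narrow margin. HFD replicate 1 was the lowest library there too, and without it the log2 fold change was −0.13 (SE 0.097, edgeR adjusted p = 0.695).

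The effect of diet on mRNA was then set against its effect on the promoter mark of the same gene, as an interaction of library kind and diet in edgeR, fitted over 12791 genes. This test was added after the data had been seen. Over all tested features the quartiles of the log2 fold change were −0.26 and 0.35 for mRNA and −0.12 and 0.17 for promoters. Promoter changes were thus generally smaller, and the test does not adjust for this difference of scale. The mRNA effect exceeded the promoter effect for Trib1, by 1.13 on the log2 scale (SE 0.167, adjusted p = 0.000318), and for Ptprf, by 0.96 (SE 0.185, adjusted p = 0.00217). Both held whichever of the 12 libraries was left out. For Grb14 the difference was −0.45 (SE 0.193, adjusted p = 0.106), and it passed without mRNA HFD replicate 1, at −0.64 (adjusted p = 0.00329). For Socs3 it was 0.64 (adjusted p = 0.223), and it passed without mRNA HFD replicate 3, at 0.96 (adjusted p = 0.00925). Grb10, Ptpn1 and Trib3 had differences of 0.34, −0.03 and 0.24, with adjusted p-values of 0.428, 0.903 and 0.516. Of all genes 23.2% were called in this test, 13% with the higher effect in mRNA and 10.3% with the lower, so 2 of 7 is near the background. Of the 2301 genes that rose in mRNA and had a tested promoter, 11 had that promoter called in either direction, and of the 2247 that fell and had one, 2 did.

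**Figure D3:**
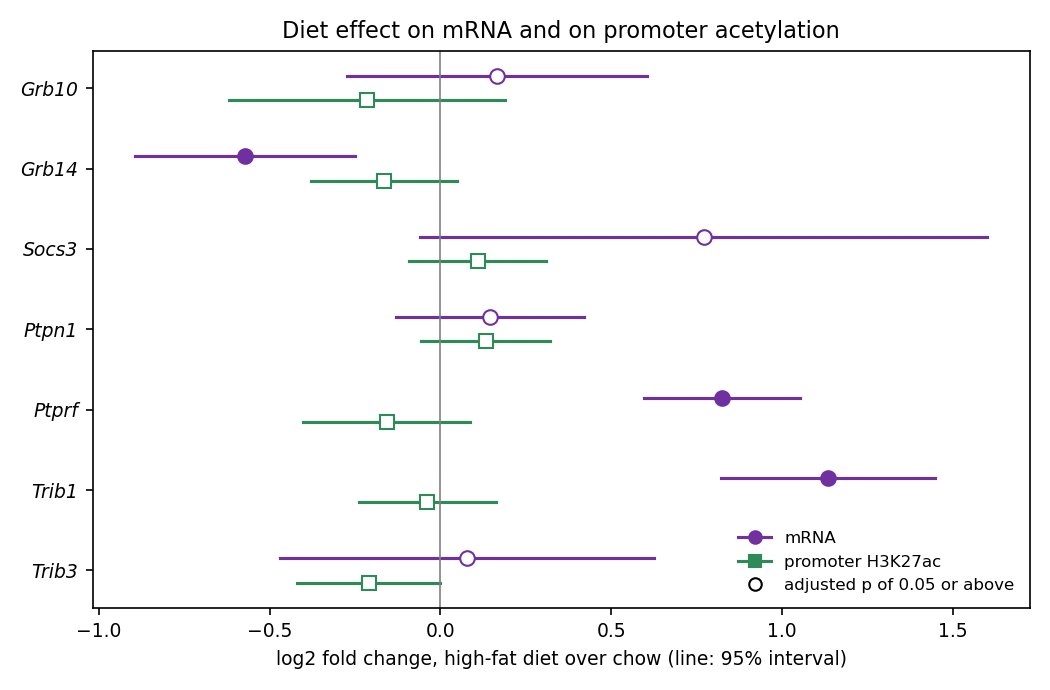
Log2 fold change of high-fat diet over chow for each of the 7 genes, in mRNA and in promoter H3K27ac, with points at the edgeR estimate and bars for the 95% interval. The mRNA intervals of Trib1, Ptprf and Grb14 leave out 0, as does, barely, the promoter interval of Trib3, and the promoter estimates of all 7 genes lie between −0.21 and 0.13.

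In the authors' deposited table of mRNA results the same 3 genes passed an adjusted p of 0.05. The share of all genes that passed there was not counted, and DESeq2 as run here called 4373 of 12908 genes. Log2 fold changes in the authors' deposited table were −0.56 for Grb14 (adjusted p = 0.000564), 0.59 for Ptprf (adjusted p = 6.28e-06) and 0.998 for Trib1 (adjusted p = 9.23e-09). For Socs3 the authors' deposited table gave 0.36 (adjusted p = 0.463), and for Grb10 it gave 0.07 (adjusted p = 0.814). For Ptpn1 and Trib3 the authors' deposited table had the other sign from the edgeR fit, at −0.06 (adjusted p = 0.77) and −0.19 (adjusted p = 0.636), both far from the threshold. Whether the authors' fold changes were shrunken is not stated.

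Other brakes on the pathway moved in both directions. Of 23 tested genes, 5 were called higher and 7 lower, and 11 were not called, beside 35.6% called over all genes (18% higher and 17.6% lower). The median log2 fold change of these genes was −0.005. Among those that rose were Pid1, whose protein binds a receptor of the LDL family and dampens insulin signalling in cultured fat cells, at 1.97-fold (edgeR adjusted p = 0.000433), and the receptor phosphatase gene Ptprj, at 1.44-fold (adjusted p = 0.00959). Prkce, a protein kinase C tied to lipid-induced insulin resistance in rodent liver, rose 1.39-fold (adjusted p = 0.00642). Socs2, the growth-hormone-induced relative of Socs3, fell 2.51-fold (adjusted p = 0.0154), with 4.45 ± 2.18 CPM in HFD livers and 11.3 ± 2.49 CPM in chow livers (SD, n = 3 each). Ptpre, a phosphatase gene, fell 1.81-fold (adjusted p = 0.0205), and Rps6kb1, the S6 kinase gene whose protein feeds back on IRS1, fell 1.61-fold (adjusted p = 0.000522). Without HFD replicate 2 or without chow replicate 2 the number that fell was 4.

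The chain that these brakes act on also moved in both directions. Of its 24 genes, 7 were called higher and 4 lower, and 13 were not called, against the same 35.6% over all genes. Their median log2 fold change was 0.06. Insr, for the receptor on which GRB14, LAR and PTP1B act, stood at a log2 fold change of −0.11 (edgeR adjusted p = 0.32). Irs2, the receptor substrate that fasting raises in liver, fell 1.89-fold (adjusted p = 0.00129), with 11.1, 10.2 and 8.15 CPM in HFD livers against 18.7, 19.7 and 17.2 CPM in chow livers. The kinase gene Pdpk1 fell 1.37-fold (adjusted p = 0.0208), and Rictor, a subunit of mTORC2, fell 1.33-fold (adjusted p = 0.00674). Foxo3 and Foxo1, whose products AKT keeps out of the nucleus, rose 2.48-fold (adjusted p = 0.000537) and 1.55-fold (adjusted p = 0.000876). Pik3r1, the regulatory subunit of phosphatidylinositol 3-kinase, rose 1.81-fold (adjusted p = 0.000194). Without HFD replicate 2 or without chow replicate 2 the chain had 4 genes higher and 2 lower, and scaled by total counts 2 were lower. No promoter passed in any of the 5 lists, by edgeR or by DESeq2. At an unadjusted p under 0.05 by edgeR there were 3 of 24 promoters among the other brakes, 1 of 24 in the chain, 5 of 15 among the ATF4 and CHOP targets, 0 of 9 for the input to STAT3 and 0 of 5 for the partners of Trib1, beside 14% of all promoters. By DESeq2 these counts were 1, 1, 4, 0 and 0 in the same order, beside 7.55% of all promoters.

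**Figure D4:**
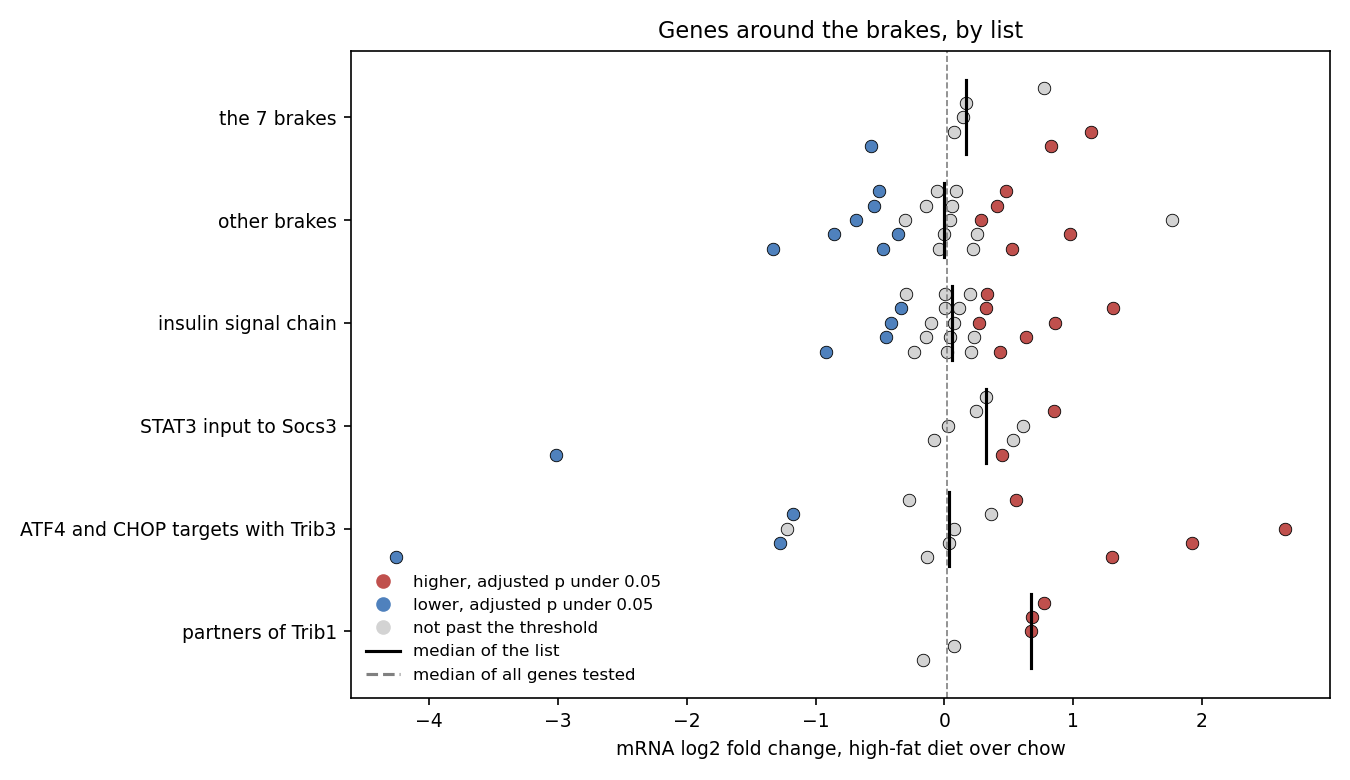
Log2 fold changes in mRNA, high-fat diet over chow, for the genes of each pathway list, 1 point per tested gene, with called and uncalled genes marked apart. Every list but the partners of Trib1 holds called genes on both sides of 0.

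To see which other genes followed the same course over the 6 mRNA libraries, log2 CPM was centred on each gene's own mean and the root mean square (RMS) difference from the member was taken over 11883 genes. For Socs3 the nearest was Stat3, at 0.225, followed by Cxcr2 at 0.259 and Tgm1 at 0.267, where the median over all genes was 0.645. For Trib1 the nearest were Nans (0.0825), Pfkfb3 (0.0866) and Gulo (0.0888), against a median of 0.612. For Ptprf they were Tmem98 (0.0515), Myh9 (0.0525) and St6gal1 (0.0582), against a median of 0.460. The nearest genes thus lay farther from Socs3 than from Trib1 or Ptprf. Stat3, Cxcr2 and Tgm1 each stood lower in HFD replicate 3 than in the other HFD libraries, as Socs3 did. They were picked for closeness to Socs3 over these same libraries, so the shared course follows from the choice.

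For Grb14 the nearest genes were Rps27a (0.0427), C630043F03Rik (0.0495) and U2af1 (0.0502), with a median of 0.389 over all genes. Trib3 was followed most closely by Trp53inp1 (0.0547), and then by Plp2 (0.0953) and Sema3b (0.132). Grb10 had Mettl15 (0.0390), Pura (0.0516) and Fv1 (0.0552), and Ptpn1 had Slc35e3 (0.0424), Arf2 (0.0449) and Fiz1 (0.0483). With 6 libraries and many genes, close neighbours are found for any member, so the distances are a description.

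**Figure D5:**
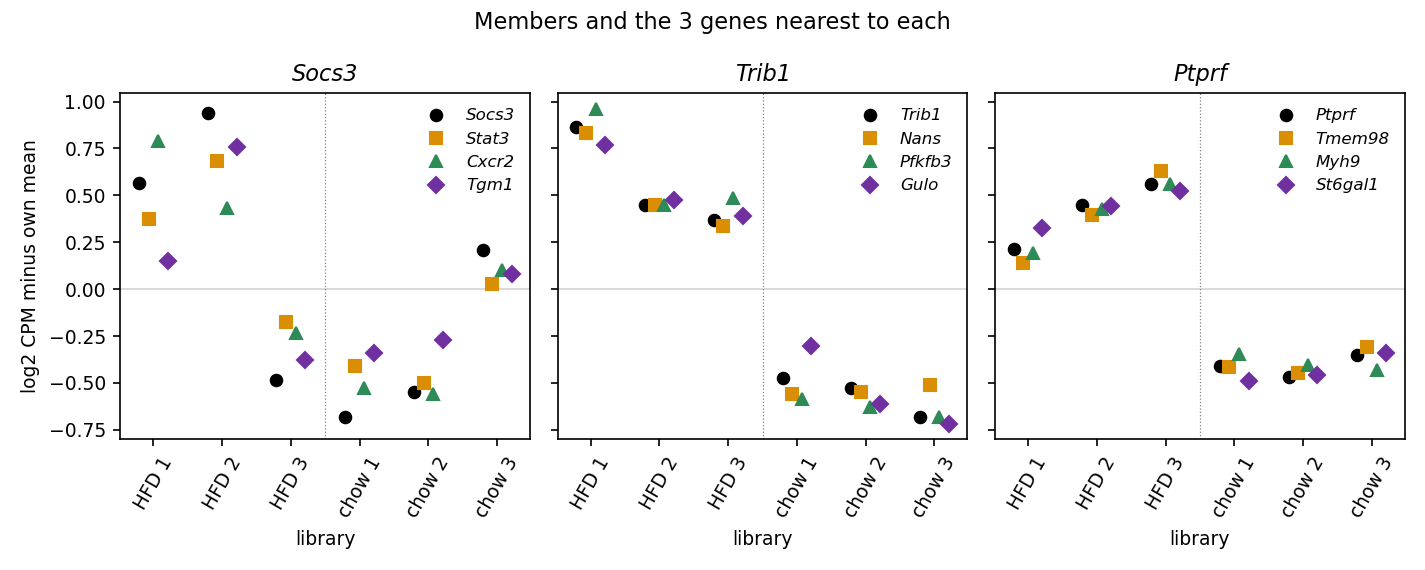
Log2 CPM minus each gene's own mean over the 6 mRNA libraries, for Socs3, Trib1 and Ptprf and the 3 genes nearest to each, with HFD libraries left of chow libraries. Trib1 and Ptprf and their neighbours separate the diets, while Socs3 and its neighbours are lower in HFD replicate 3 than in the other HFD libraries. Neighbours were picked for closeness over these same libraries, so a course shared with the member follows from the choice.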

How the data were processed

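Messenger RNA and histone marks were measured in mouse liver. The deposited mRNA and promoter tables hold raw read counts per gene and per gene promoter. Per the submitters' processing notes, the tools for mRNA included TopHat 1.4.0, HTSeq and DESeq2 1.0.18, those for ChIP included MACS 1.4.0rc2 and Bowtie 0.12.7, bedtools and DESeq2 were named for both, and the build was mm9. The role of each tool and the width of a promoter are not given in the sources used here. The authors' deposited tables of comparisons hold log2 fold changes and p-values.

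Tables were fitted separately in edgeR 4.0.16 (R 4.3.3): filterByExpr by diet, TMM scaling, and the two-sided quasi-likelihood test of diet, without other terms. P-values were adjusted by Benjamini-Hochberg over all tested features, with a threshold of 0.05. CPM are counts divided by the TMM-scaled total and multiplied by 1e+06. Alternatives were DESeq2 1.42.0, its size factors in edgeR, total counts, no filter, a replicate block and leaving out each library. The fits were tested on simulated data.

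The 7 genes and the pathway lists were chosen with earlier results of these data known. All 7 are named; each list names up to 3 called genes with the largest rise and 3 with the largest fall, and each of the 7 names its 3 nearest genes with a mean of at least 1 CPM. Genes given with values though not called were chosen after their values were seen. Levels are not compared between genes, since lengths were not used. Peak lists, union-peak counts, H3K4me1, H3K4me3 and the authors' normalized counts were not used here. Promoter windows are from RefSeq, GRCm38.p6.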

Additional observations from a re-analysis of the deposited data

How the results depend on the processing

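Whether equal replicate numbers pair the libraries could not be settled. Deviations of same-numbered libraries correlated at 0.0354, −0.0409 and 0.136 for mRNA and at 0.0919, −0.0059 and 0.0437 for promoters. Some libraries, but not all, correlated best with their own number. With a replicate block, 4462 genes were called for mRNA, against 4590 without it, and 470 promoters (315 higher, 155 lower), against 49. No call among the 7 genes changed under the block, DESeq2, its size factors, total counts or no filter.

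Leaving out 1 library gave 2899 to 5163 mRNA calls (1489 to 2580 higher, 1410 to 2583 lower) and 0 to 736 promoter calls (0 to 537 higher, 0 to 199 lower); the promoter count was 736 without HFD replicate 2 and 0 without chow replicate 2, and the cause was not tested. DESeq2 gave 41 promoter calls and no filter 71.

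Over the left-out libraries, log2 fold changes in mRNA ran from −0.77 to −0.46 for Grb14, from 0.44 to 1.09 for Socs3 and from −0.20 to 0.28 for Trib3, which was −0.20 without HFD replicate 3 and −0.031 without chow replicate 2. The Trib1 promoter ran from −0.091 to 0.024, the last without chow replicate 2. The mRNA-minus-promoter difference ran from −0.64 to −0.34 for Grb14, from 0.31 to 0.96 for Socs3, from −0.12 to 0.081 for Ptpn1 and from −0.039 to 0.45 for Trib3; Ptpn1 was above 0 without mRNA HFD replicate 3 (0.081), mRNA chow replicate 3 (0.022), H3K27ac HFD replicate 1 (0.006) or H3K27ac chow replicate 3 (0.016), and Trib3 below 0 without mRNA HFD replicate 3 (−0.039). The low read count of Grb10 and the shallow HFD replicate 1 of H3K27ac limit the precision there. In CPM, HFD replicate 1 of H3K27ac was also the lowest library at the promoters of Grb10, Grb14, Ptprf and Trib3. It was not the lowest at Socs3, Ptpn1 or Trib1. Why this library stood low was not tested.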

Other observations

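Cish, a cytokine-induced relative of Socs3 that also answers to growth hormone, was singled out after its values were seen. It was at 24.6, 9.92 and 1.48 CPM in HFD livers and 2.76, 4.40 and 3.60 CPM in chow livers. HFD replicates 1 and 2 stood above all chow libraries and HFD replicate 3 below all of them, the same order of HFD replicate 3 against the others as for Socs3 and Stat3. The log2 fold change of Cish was 1.77 (SE 0.754, edgeR adjusted p = 0.101). Socs2, another target of growth hormone, was lowest in the same library, at 6.72, 4.27 and 2.37 CPM in HFD livers and 8.42, 13.1 and 12.3 CPM in chow livers.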
